A study of Mus musculus with 6 samples.

Results

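The genes described here are the laminin chains, the integrin subunits and a few proteins that connect them, taken from gene-level RNA-Seq counts of mouse top lip. They were chosen by symbol alone: Lama, Lamb or Lamc followed by a digit, Itga or Itgb followed by a digit, and Nid1, Nid2, Hspg2, Agrn and Dst. Of 26814 symbols in the counts, 40 matched, and 39 of these were among the 15009 genes tested, those at 1 CPM or more in 3 or more libraries, where CPM is a gene's count scaled to a common library size. The 39 are 11 laminin chains, 12 integrin alpha subunits, 8 integrin beta subunits, 5 genes made up of the basement membrane linkers Nid1, Nid2, Hspg2 and Agrn together with Dst, and 3 genes (Itgb1bp1, Itgb1bp2 and Itgb3bp) that the symbol rule takes in although their products bind integrins and are not subunits. Itgb2l, an Itgb2 relative, was the member left out, with counts of 2, 0 and 0 in the WT libraries and 0, 0 and 1 in the KO libraries. Integrin alpha subunits named by a letter, such as Itgav, do not match the rule and are given separately.

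Laminins are trimers of 1 alpha, 1 beta and 1 gamma chain that polymerise into the sheet beneath epithelia and around muscle, nerve, fat and vessels. Nidogens, perlecan (Hspg2) and agrin (Agrn) tie that sheet to type IV collagen and to the cell surface. Integrins are paired alpha and beta subunits that hold cells to laminin, collagen or fibronectin. In the epidermis, the laminin that holds the Lama3 and Lamb3 chains is bound by the integrin of Itga6 and Itgb4, which the plakins Plec and Dst (dystonin, whose epidermal form is BPAG1) link to keratin filaments in hemidesmosomes.

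The study set out to find genes that differ in the lips of mice lacking Gtf2ird1, whose lip and nose skin is thickened. Top lip tissue came from 3 wild-type (WT) and 3 Gtf2ird1 tm1Hrd knockout (KO) mice, all adult females on the C57BL/6J background, with 1 library per mouse. The targeted allele is carried in every cell of the KO animals, so no tissue was targeted separately. The libraries held 20164081 to 29491767 counts on genes.

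The targeted gene was higher, not lower, in the libraries labelled KO. Gtf2ird1 was at 78.2, 70.2 and 70.7 CPM in the WT libraries and at 166, 162 and 144 CPM in the KO libraries, a log2 difference of 1.11 (standard error 0.13, adjusted p = 0.0018, edgeR quasi-likelihood test). The paper states that tail biopsies were collected to check the genotypes. It also cites work in which the GTF2IRD1 protein binds its own promoter and regulates its own transcription. The part of this in the counts was not tested. A count summed over the gene cannot show whether its reads came from the targeted or the normal allele. Every direction below is therefore that of the libraries labelled KO against the libraries labelled WT, and KO and WT name libraries by label. KO3 stood apart: it was the KO library nearest to the WT mean in 57.1% of all tested genes, and values that rest on it are given with and without it.

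Top lip is a mixture of cell types, and some of its marker lists differed in summed level between genotypes. Summed markers of basal keratinocytes (5 genes) lay at 10400 to 11400 CPM in WT and 9790 to 11600 in KO, while those of suprabasal keratinocytes (6 genes, 5 with a positive log2 difference) lay at 19600 to 24300 and 30600 to 46200 CPM. Markers of skeletal muscle had negative log2 differences in 12 of 12 genes (10400 to 14100 CPM in WT, 4440 to 8870 in KO), and so had those of dermal fibroblasts in 8 of 8 (6780 to 8770 and 2960 to 7030), endothelium in 8 of 8 (231 to 277 and 150 to 262), smooth muscle and pericytes in 6 of 6 (331 to 347 and 204 to 272), Schwann cells in 6 of 6 (494 to 517 and 247 to 435), adipocytes in 6 of 6 (212 to 252 and 139 to 171) and hair follicle in 10 of 10 (3030 to 4210 and 1160 to 2630). The genotypes did not overlap in the sums of suprabasal keratinocytes, skeletal muscle, smooth muscle, Schwann cells, adipocytes and hair follicle, and did overlap in those of basal keratinocytes, fibroblasts and endothelium. Of all these, 5 genes passed an adjusted p of 0.05, all lower in KO: Tnnt3 and Tnni2 of muscle, Tagln of smooth muscle, Ncam1 of Schwann cells and Fabp4 of adipocytes. Leukocyte markers had positive log2 differences in 4 of 6 genes, 3 of them above WT in every KO library (13.5% of all genes). Their sums overlapped (139 to 176 CPM in WT and 127 to 234 in KO). T cell markers were positive in 5 of 5 (7.18 to 11.7 and 8.9 to 18.6) and macrophage markers negative in 5 of 7 (267 to 312 and 223 to 310), and their sums overlapped too. Platelet markers, a list that holds Itga2b, itself a member, were negative in 4 of 4 without overlap of the sums (38.6 to 48.8 and 27.3 to 36.0). None of these passed an adjusted p of 0.05 in edgeR's quasi-likelihood test. No listed marker was at 3 counts or fewer in all libraries. In bulk tissue, fewer cells of a type and less RNA per cell cannot be told apart.

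Among the 39 genes, Dst rose in KO and no gene fell at an adjusted p of 0.05 over the 15009 genes (edgeR quasi-likelihood test). Over all tested genes 4.38% were called higher and 2.09% lower. At an unadjusted p under 0.05 there were 13 members, 11 lower and 2 higher, or 33.3% against 29.6% of all genes. edgeR's exact test called 1 higher and 7 lower (7.76% and 7.15% of all genes), DESeq2 called 1 and 3 (8.93% and 5.31%), and limma-voom called 1 and 0 (4.08% and 2.21%). Without KO3 the quasi-likelihood test called 2 higher and 13 lower, against 16.9% and 16.2% of all genes. With any other single library left out, no member passed in either direction. For those fits the share over all genes was not counted.

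The log2 differences lay mostly below 0, in 30 of 39 members (76.9%) against 52.0% of all tested genes, with a median of -0.24 against -0.02. In 12 members the 3 KO values lay outside the range of the 3 WT values. That is 30.8% of members, close to the 31.5% of all genes, and it was made up of 2 members above WT (5.13%, 13.5% of all genes) and 10 below (25.6%, 18.1% of all genes). In each of the 12, KO3 was the KO library nearest to the WT mean, as it was in 61.9% of the 4730 tested genes without overlap.

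**Figure D1:**
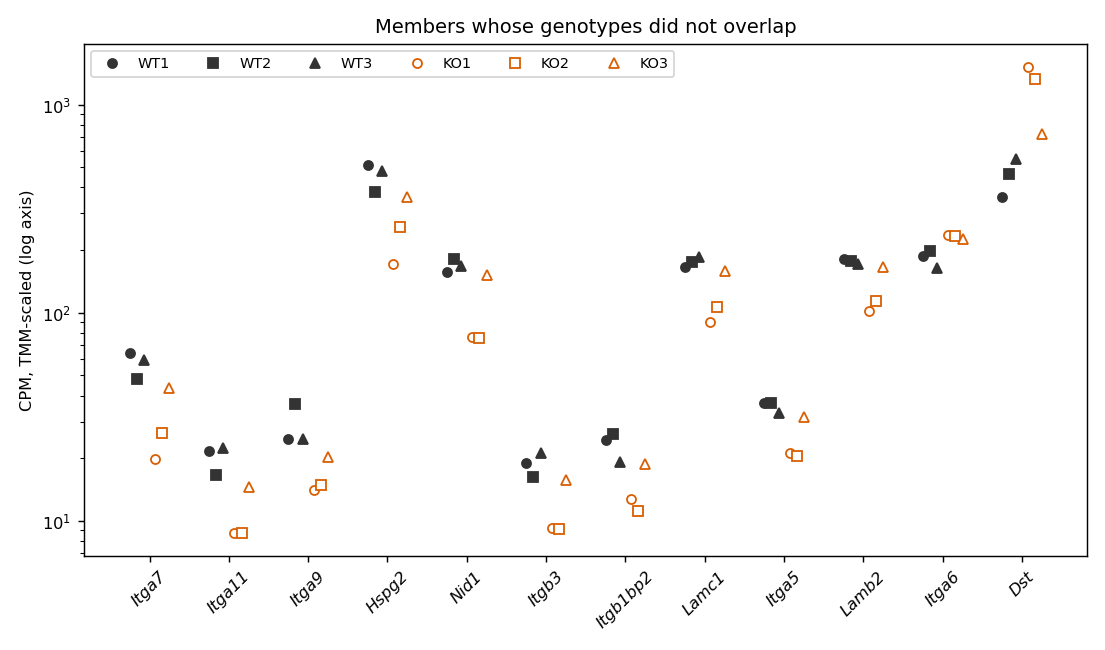
CPM in each library (log axis, scaled by edgeR's TMM factors) of the 12 members whose genotypes did not overlap; filled symbols are WT, open symbols KO, and circles, squares and triangles are replicates 1, 2 and 3. Itga6 and Dst lie above WT, the other 10 below it, and the open triangle of KO3 is the KO value nearest to WT in each.

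**Figure D2:**
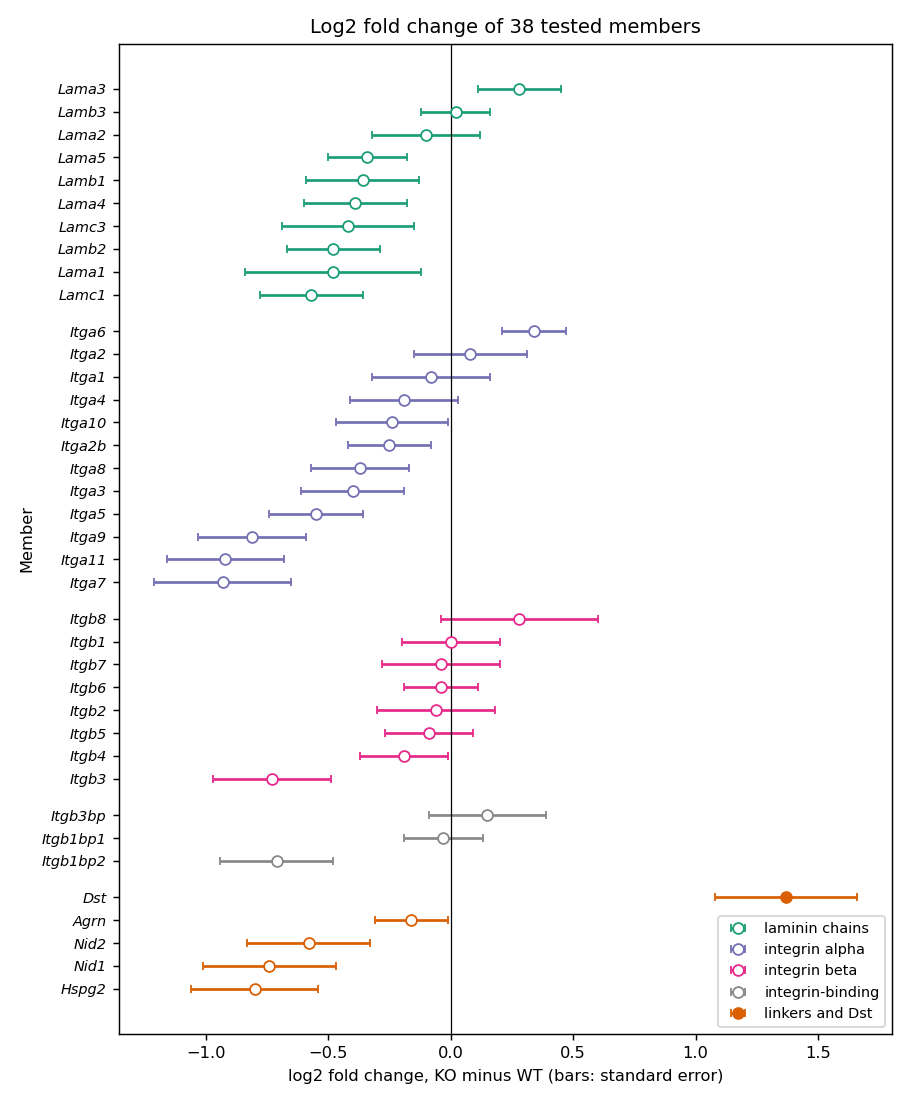
Fitted log2 difference, KO minus WT, of 38 members with standard errors, from the edgeR fit on all 6 libraries and coloured by kind; the filled symbol passed an adjusted p of 0.05. Dst, at 1.37, is that member, and 30 points lie below 0.

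Dst encodes dystonin, the plakin that anchors keratin at hemidesmosomes in its epidermal form and binds actin or microtubules in its muscle and neural forms. It was at 359, 465 and 549 CPM in the WT libraries and at 1510, 1330 and 721 CPM in the KO libraries, or 9883 to 12216 counts against 15775 to 40329. All KO values lay above all WT values, with KO1 and KO2 at 329% and 290% of the WT mean and KO3 at 158%. The means were 458 ± 95.6 and 1180 ± 411 CPM (SD, n = 3 mice each), a 2.59-fold increase (log2 1.37, standard error 0.29, adjusted p = 0.0343, edgeR quasi-likelihood test). The adjusted p was 5.8e-05 in edgeR's exact test, 2.5e-05 in DESeq2 and 0.0391 in limma-voom. Leaving out single libraries kept the log2 difference between 1.22 and 1.63, but the call held only without KO3 (adjusted p = 0.00104). It was lost without WT1 (0.144), WT2 (0.083), WT3 (0.0816), KO1 (0.0873) or KO2 (0.134). All of these fits, the one without KO3 included, hold fewer libraries than the main fit.

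Dst spans chr1:33908225-34308661 on the plus strand of GRCm38. GENCODE M21 gives it 20 transcripts, of which 14 are protein coding with 776 to 23279 bases, and the union of its exons is 41.16 kb, the longest of the members (median 7.11 kb, against 4.28 kb over tested genes with a length). Counts per gene do not say which form the reads came from. With a trend on exon length removed from each library the log2 difference was 1.17 (adjusted p = 0.00505). On the opposite strand Dst overlaps A930005N03Rik, Gm23792, Gm26788 and Gm28631, and neither the paper's text nor the labels say whether counting used the strand.

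RefSeq places start sites of Dst in separate parts of the gene. The windows of 250 bases before to 50 after each annotated start that the sequence table held for it are printed here because Dst was the member called, at chr1:34011345-34011644 and chr1:34160010-34160309, both on the plus strand. Capitals mark GGGCGG, the core of a GC box, found on either strand.

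Dst start 1: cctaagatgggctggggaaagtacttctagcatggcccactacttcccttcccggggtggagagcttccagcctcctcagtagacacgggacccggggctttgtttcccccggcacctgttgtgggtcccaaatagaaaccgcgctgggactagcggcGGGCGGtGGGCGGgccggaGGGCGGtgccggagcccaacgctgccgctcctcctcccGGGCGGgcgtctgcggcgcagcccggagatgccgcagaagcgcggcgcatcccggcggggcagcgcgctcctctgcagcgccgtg

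Dst start 2: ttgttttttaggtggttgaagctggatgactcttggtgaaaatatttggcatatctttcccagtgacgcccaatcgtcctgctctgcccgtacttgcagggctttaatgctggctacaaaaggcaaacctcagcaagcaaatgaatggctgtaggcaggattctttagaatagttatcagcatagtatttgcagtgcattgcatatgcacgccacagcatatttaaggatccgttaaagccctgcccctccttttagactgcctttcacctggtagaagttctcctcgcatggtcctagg

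The upstream window held 4 copies of GGGCGG at 70.3% GC, and the downstream window held none at 46.0% GC. Among all 32851 promoter windows 35.7% held GGGCGG, and among the 31 windows of the 26 members with one, 15 did (48.4%). GGATTA, which contains the GATTA core known from GTF2IRD1 binding sites, was in neither Dst window. It was in 7.06% of all windows and in 2 of 31 member windows (6.45%), those of Agrn and Lamb2. Both strands were searched, and copies of the motifs can overlap in a shared GG. These are matches of letters in short windows, and the counts do not show which start site was used.

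Other plakins and hemidesmosome genes were set beside Dst. In a list of 10 tested genes, which shares Krt5, Krt14 and Col17a1 with the basal keratinocyte markers, none passed an adjusted p of 0.05 in edgeR's quasi-likelihood test (1 at an unadjusted p under 0.05), and the median log2 difference was 0.09. Macf1, the plakin nearest in build to Dst, had 304, 331 and 506 CPM in WT and 757, 677 and 416 in KO (log2 difference 0.70, standard error 0.27, adjusted p = 0.139), so KO3 fell inside the WT range. Plec, the other hemidesmosomal plakin, had 787, 676 and 732 CPM in WT and 496, 571 and 677 in KO (-0.33, standard error 0.16), where KO3 fell just inside the WT range. The plakin Dsp had 2860, 2960 and 3450 CPM in WT and 4790, 4490 and 3410 in KO (0.46, adjusted p = 0.198). Ppl had 474, 638 and 529 in WT and 922, 787 and 498 in KO (0.43, adjusted p = 0.262). In both, as in Macf1, KO1 and KO2 lay above WT and KO3 inside its range. The plakin Evpl had a log2 difference of 0.03. The tetraspanin Cd151, a partner of laminin-binding integrins, had 129, 101 and 118 CPM in WT and 78.9, 78.9 and 108 in KO (-0.39, adjusted p = 0.174).

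Ratios within a library do not depend on the scaling between libraries. The log2 ratio of Dst to Plec counts was -1.13, -0.54 and -0.41 in WT and 1.60, 1.22 and 0.09 in KO. Every KO ratio was above every WT ratio, with a mean difference of 1.67 (1.35 to 2.11 with single libraries left out). On the same scale Dst to Macf1 was 0.24, 0.49 and 0.12 in WT and 0.99, 0.97 and 0.79 in KO, a difference of 0.64 without overlap (0.55 to 0.74). Both gave p = 0.1 in a two-sided exact permutation test (0.2 adjusted over the 12 pairs compared), and 0.1 is the smallest p that 3 libraries against 3 allow.

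Itga6, at chr2:71745616-71858416 (plus strand), is the alpha subunit that pairs with Itgb4 in hemidesmosomes and with Itgb1 elsewhere. It was at 188, 198 and 164 CPM in WT and at 235, 234 and 225 in KO. All KO values lay above WT, and here KO3 (123% of the WT mean) stood close to KO1 and KO2 (128% each). The log2 difference was 0.34 (standard error 0.13) with an adjusted p of 0.127, 0.067 to 0.27 under the alternatives with every library (edgeR, DESeq2 or limma-voom), so it did not pass. Itga6 overlaps Gm13739 and Gm17250 on the opposite strand. Itgb4, its hemidesmosomal partner, was at 229, 170 and 190 CPM in WT and 139, 182 and 195 in KO, which overlap (-0.19, standard error 0.18, adjusted p = 0.491). Itgb1, the partner of most other alpha subunits, was at 144, 215 and 139 CPM in WT and 173, 185 and 142 in KO (0.00, standard error 0.20, adjusted p = 0.989).

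Itga3, the other laminin-binding integrin subunit of the epidermis, was at 92.3, 67.9 and 80.7 CPM in WT and 44.3, 65.5 and 72.8 in KO (-0.40, standard error 0.21, adjusted p = 0.23), with an overlap between WT2 and KO3. The log2 ratio of Itga6 to Itga3 was 1.03, 1.54 and 1.02 in WT and 2.41, 1.84 and 1.63 in KO, a difference of 0.76 without overlap (0.54 to 0.94 with single libraries left out, exact permutation p = 0.1). For Itgb4 to Itgb1 the log2 ratios were 0.67, -0.34 and 0.45 in WT and -0.32, -0.02 and 0.46 in KO, which overlap (exact permutation p = 0.8).

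None of the 11 laminin chains passed an adjusted p of 0.05 in edgeR's quasi-likelihood test. At an unadjusted p under 0.05 there were 2 (18.2%, 29.6% of all genes). In 8 the log2 difference was negative, and the median over the 11 was -0.36. Levels of different chains are compared per kilobase of exon. In WT the order of those given was Lamb2 (mean 29.1 CPM per kb, range 28.3 to 29.8), Lamc1 (21.2, 19.9 to 22.5), Lama5 (16.6, 14.2 to 18.1), Lamb3 (14.4, 13.3 to 15.7), Lamb1 (9.20, 7.33 to 10.7), Lamc3 (6.45, 5.67 to 7.29), Lama3 (5.89, 4.86 to 6.91), Lama4 (4.6, 3.44 to 5.49), Lama2 (3.73, 2.83 to 4.88) and Lama1 (0.131, 0.0836 to 0.189). The ranges of Lama5 and Lamb3 overlapped, and so did those of neighbours from Lamc3 down to Lama2, while Lamb2, Lamc1, Lamb1 and Lama1 stood clear of theirs. Lama1, the chain of early embryos, had 16 to 43 counts in a library, where counting error is large.

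The epidermal chains Lama3 and Lamb3 did not share the negative differences. Lama3 was at 52.3, 63.4 and 74.3 CPM in WT and 82.8, 82.4 and 65.8 in KO (log2 0.28, standard error 0.17, adjusted p = 0.291), where KO3 fell inside the WT range. Lamb3, which overlaps G0s2 and Hsd11b1 on the opposite strand, was at 104, 87.7 and 93.6 CPM in WT and 84.5, 97.5 and 107 in KO (0.02, standard error 0.14, adjusted p = 0.936).

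The chains Lamb2 and Lamc1, shared by the laminins of vessels, muscle and other tissues, were below WT in every KO library. Lamb2 (chr9:108479736-108490530, plus strand) was at 181, 178 and 172 CPM in WT and 102, 114 and 165 in KO. KO1 and KO2 stood at 57.7% and 64.4% of the WT mean and KO3 at 93.2%. The log2 difference was -0.48 (standard error 0.19, adjusted p = 0.138), and -0.71 without KO3 (adjusted p = 0.00492). Lamc1 (chr1:153218922-153332786, minus strand) was at 165, 176 and 186 CPM in WT and 90.2, 107 and 158 in KO (-0.57, standard error 0.21, adjusted p = 0.12). KO3 again stood highest of the KO libraries, at 90.2% of the WT mean, and without it the adjusted p was 0.00332. Lamc1 overlaps Gm8818 on the opposite strand.

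The promoter window of Lamb2, at chr9:108479612-108479911 on the plus strand, is printed because it was 1 of the 2 member windows with GGATTA. Capitals mark the match, which lies on the opposite strand and so reads TAATCC here.

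Lamb2: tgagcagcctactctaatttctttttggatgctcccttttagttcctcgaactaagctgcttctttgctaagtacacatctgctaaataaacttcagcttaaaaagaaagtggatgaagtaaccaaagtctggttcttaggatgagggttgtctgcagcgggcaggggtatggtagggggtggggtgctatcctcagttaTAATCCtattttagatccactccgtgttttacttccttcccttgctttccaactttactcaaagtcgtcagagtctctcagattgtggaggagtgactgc

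The remaining chains overlapped between genotypes. Lama5, a chain of adult epithelia and vessels and the highest alpha chain per kb here, was at 206, 198 and 162 CPM in WT and 147, 173 and 126 in KO (-0.34, adjusted p = 0.199). Lama4, a chain of vessels and nerve, was at 41.5, 58.6 and 66.2 CPM in WT and 37.4, 38.0 and 51.5 in KO (-0.39, adjusted p = 0.244). Lama2, a chain of muscle and Schwann cells among others, was at 46.2, 56.8 and 79.6 in WT and 58.7, 45.6 and 65.9 in KO (-0.10, adjusted p = 0.787). The part of cell composition in the Lama2 values was not tested. Lamb1 was at 72.7, 95.1 and 106 CPM in WT and 52.8, 68.3 and 92.5 in KO (-0.36, adjusted p = 0.319). Lamc3 was at 39.0, 34.6 and 44.4 CPM in WT and 19.6, 26.0 and 42.6 in KO (-0.42, adjusted p = 0.324). For both, KO3 lay inside the WT range. Without it they passed in edgeR's quasi-likelihood test, at -0.58 for Lamb1 (adjusted p = 0.0417) and -0.78 for Lamc3 (0.0108). The fit without KO3 thus called 4 of 11 laminin chains lower, against 16.2% of all tested genes. Lama1 had a log2 difference of -0.48 (adjusted p = 0.389).

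As shares of the summed CPM per kb of a chain kind, Lama3 and Lamb3 took more of their kinds in KO. Lamb3 made up 27.3% ± 2.21 of beta chains in WT and 34.6% ± 3.34 in KO (SD, n = 3), and Lamb2 55.3% ± 1.78 and 48.7% ± 2.58. Lama3 made up 19.0% ± 2.68 of alpha chains in WT and 26.2% ± 2.1 in KO. The genotypes did not overlap in any of these 3 shares and did overlap in the shares of Lama1, Lama2, Lama4, Lama5 and Lamb1. The CPM of Lamb3 itself overlapped between genotypes.

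**Figure D3:**
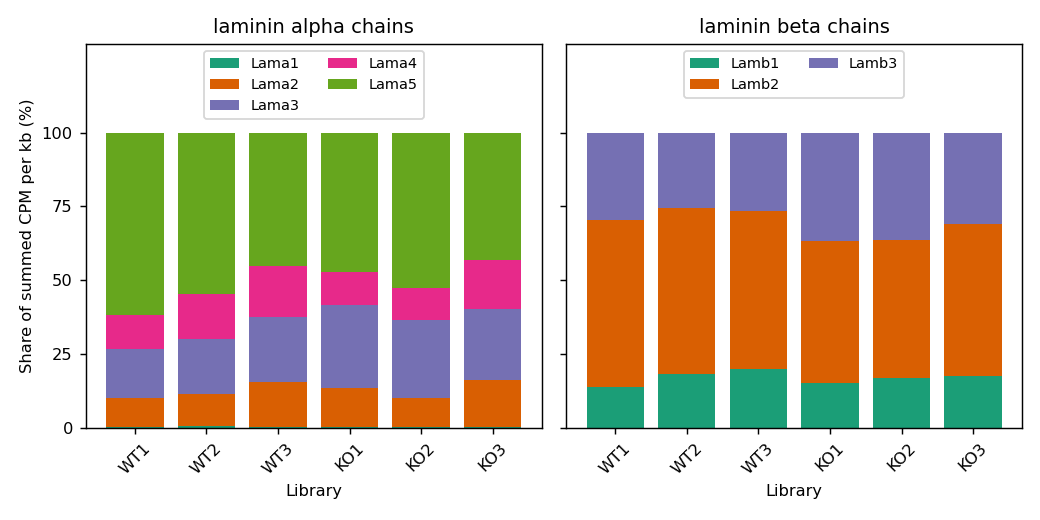
Share of each alpha and beta chain in the summed CPM per kb of its kind, 1 bar per library; Lama1, under 1%, is hardly visible. Lamb3 holds 25.4 to 29.7% of beta chains in the WT bars and 30.8 to 36.6% in the KO bars.

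Within libraries, the log2 ratio of Lama3 to Lama4 was 0.33, 0.11 and 0.16 in WT and 1.15, 1.12 and 0.35 in KO. It differed by 0.67 on average, but KO3 was only just above the highest WT value, and without KO3 the difference was 0.93. It gave an exact permutation p of 0.1 (0.2 adjusted). Lamb3 to Lamb1 was 0.52, -0.12 and -0.18 in WT and 0.68, 0.51 and 0.21 in KO (difference 0.39, exact permutation p = 0.3). Lama5 to Lama2 was 2.16, 1.8 and 1.02 in WT and 1.32, 1.92 and 0.93 in KO (-0.27, exact permutation p = 0.7), and both ratios overlapped between genotypes.

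The linkers of the basement membrane had negative log2 differences. Hspg2 encodes perlecan, a large heparan sulfate proteoglycan of basement membranes and cartilage, and lies at chr4:137468769-137570630 (plus strand). It was at 514, 378 and 481 CPM in WT and 172, 257 and 358 in KO, all below WT and spread from 37.7% (KO1) to 78.1% (KO3) of the WT mean. The log2 difference was -0.80 (standard error 0.26, adjusted p = 0.0947), below 0.05 in edgeR's exact test (0.0261) and without KO3 (0.00574), and not in DESeq2 (0.0515). With another single library left out, the adjusted p of Hspg2 was 0.118 to 0.298 (edgeR quasi-likelihood test). Its promoter window, chr4:137468553-137468852, is printed for its 5 copies of GGGCGG, in capitals.

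Hspg2: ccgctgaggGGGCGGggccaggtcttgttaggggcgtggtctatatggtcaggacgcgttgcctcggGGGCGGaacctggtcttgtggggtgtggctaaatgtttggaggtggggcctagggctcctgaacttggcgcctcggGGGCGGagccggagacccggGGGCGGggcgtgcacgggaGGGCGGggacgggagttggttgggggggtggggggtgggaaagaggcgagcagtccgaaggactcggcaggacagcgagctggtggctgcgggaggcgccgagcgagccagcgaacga

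Nid1, nidogen-1, bridges laminin and type IV collagen and lies at chr13:13437551-13512269 (plus strand), overlapping Gm48682 on the opposite strand. It was at 157, 181 and 167 CPM in WT and 76.2, 75.3 and 151 in KO. KO1 and KO2 were at 45.3% and 44.7% of the WT mean, and KO3 at 89.4%, only just below the lowest WT library. The log2 difference was -0.74 (standard error 0.27, adjusted p = 0.118, 0.0459 in edgeR's exact test) and -1.15 without KO3 (0.000828). Nid2, its relative, was at 22.0, 21.3 and 24.7 CPM in WT and 11.6, 12.1 and 21.8 in KO (-0.58, standard error 0.25, adjusted p = 0.167). KO3 was again the highest KO library, and without it the log2 difference was -0.93 (adjusted p = 0.00298). As log2 ratios, Nid2 to Nid1 was -2.84, -3.09 and -2.75 in WT and -2.71, -2.64 and -2.79 in KO, which overlap (difference 0.18, exact permutation p = 0.2).

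Agrn, the heparan sulfate proteoglycan agrin, known at the nerve-muscle junction and also made by epithelia, was at 265, 269 and 240 CPM in WT and 195, 269 and 228 in KO (-0.16, standard error 0.15, adjusted p = 0.496). The genotypes overlapped. The log2 ratio of Hspg2 to Agrn was 0.96, 0.49 and 1.0 in WT and -0.18, -0.06 and 0.65 in KO, a difference of -0.68 with KO3 inside the WT range (exact permutation p = 0.2).

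Of 26 other basement membrane genes tested, 1 fell (3.85%, 2.09% of all genes) and none rose (edgeR quasi-likelihood test). In 23 the log2 difference was negative, and the median was -0.44. The 3 with a positive one were Grip1 (0.44) and Col7a1, the anchoring fibril collagen (0.31), both above WT in every KO library but not called (adjusted p = 0.171 and 0.144), and Fbln1 (0.10). The gene that fell was Smoc1, a calcium-binding protein of basement membranes, at 23.2, 21.5 and 21 CPM in WT and 9.16, 12.8 and 14.5 in KO (-0.85, standard error 0.19, adjusted p = 0.0422). Papln, papilin, was next at 15.9, 16.7 and 14.4 CPM in WT and 8.90, 11.4 and 9.10 in KO (-0.67, adjusted p = 0.0532). The exact test called 5 of the 26 lower (19.2%, 7.15% of all genes). The fit without KO3 called 14 lower, where 16.2% of all genes were called lower.

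The integrin alpha subunits held no call in edgeR's quasi-likelihood test among 12, with 10 negative log2 differences and 5 at an unadjusted p under 0.05. Those 5 are 41.7%, against 29.6% of all genes. Per kilobase, Itga6 led in WT (20.3 CPM per kb, 18.1 to 21.9), followed by Itga3 (14.1, 11.9 to 16.2), Itga5 (7.21, 6.68 to 7.50) and Itga7 (7.05, 5.91 to 7.92), the last pair overlapping. Itga11 (3.93), Itga9 (3.73) and Itga2b (2.41) came next, and Itga2, Itga8, Itga10, Itga4 and Itga1 were between 1.40 and 0.548 CPM per kb.

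Itga7, the laminin-binding subunit of skeletal, heart and smooth muscle, lies at chr10:128933818-128958282 (plus strand) and overlaps Mettl7b on the opposite strand. It was at 64.1, 47.8 and 59.2 CPM in WT and 19.8, 26.5 and 43.3 in KO, all below WT. KO1 was at 34.7% of the WT mean, KO2 at 46.5% and KO3 at 76.0%. The log2 difference, -0.93 (standard error 0.28), was the most negative of the members, with an adjusted p of 0.0795, and it was below 0.05 in edgeR's exact test (0.00831), in DESeq2 (0.0275) and without KO3 (0.00181). With another single library left out, the adjusted p was 0.108 to 0.285 (edgeR quasi-likelihood test). The log2 ratio of Itga7 to Itgb1, its partner, was -1.17, -2.17 and -1.23 in WT and -3.12, -2.8 and -1.71 in KO, a difference of -1.02 with KO3 inside the WT range (exact permutation p = 0.2).

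Among the collagen receptors, Itga11, known from fibroblasts, lies at chr9:62677826-62783982 (plus strand). It was at 21.7, 16.6 and 22.3 CPM in WT and 8.75, 8.78 and 14.5 in KO. KO1 and KO2 were at 43.4% and 43.5% of the WT mean and KO3 at 72.1%. The log2 difference was -0.92 (standard error 0.24, adjusted p = 0.062), past 0.05 in edgeR's exact test (0.0073), in DESeq2 (0.0137) and without KO3 (0.00219). With another single library left out, the adjusted p was 0.0844 to 0.254 (edgeR quasi-likelihood test). Itga2, the collagen receptor subunit of keratinocytes and platelets, was at 7.0, 10.3 and 12.6 CPM in WT and 10.5, 11.5 and 9.51 in KO, a log2 difference of 0.08 (standard error 0.23, adjusted p = 0.84). The log2 ratio of Itga11 to Itga2 was 1.63, 0.69 and 0.82 in WT and -0.26, -0.39 and 0.61 in KO, a difference of -1.06 without overlap (exact permutation p = 0.1). The other collagen receptors, Itga1 (-0.08) and Itga10 (-0.24), overlapped between genotypes.

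Of the subunits for fibronectin, tenascin and related ligands, Itga5 and Itga9 were below WT in every KO library. Itga5, the main fibronectin receptor subunit, was at 36.8, 37.0 and 33.0 CPM in WT and 21.2, 20.5 and 31.5 in KO (-0.55, standard error 0.19, adjusted p = 0.108), with KO3 at 88.4% of the WT mean, and -0.77 without KO3 (adjusted p = 0.00456). Itga9, a tenascin receptor subunit that overlaps Gm10157 and Gm2415 on the opposite strand, was at 24.8, 36.5 and 24.8 CPM in WT and 14.0, 14.8 and 20.3 in KO (-0.81, standard error 0.22, adjusted p = 0.0676). Itga9 passed 0.05 in edgeR's exact test (0.0123), in DESeq2 (0.0219) and without KO3 (0.00681). Itga8 (-0.37), Itga4 (-0.19) and the platelet subunit Itga2b (-0.25) overlapped between genotypes.

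Of the 8 beta subunits, 1 separated the genotypes (12.5%, 31.5% of all genes). None was called by edgeR's quasi-likelihood test, and 1 was at an unadjusted p under 0.05 (29.6% of all genes). Itgb3, the partner of Itgav and Itga2b, was at 18.9, 16.3 and 21.2 CPM in WT and 9.21, 9.14 and 15.7 in KO, with KO3 just under the lowest WT library (-0.73, standard error 0.24, adjusted p = 0.0998, 0.0441 in edgeR's exact test). Without KO3 the log2 difference of Itgb3 was -1.03 (adjusted p = 0.00312). Itgb8, which with Itgav activates TGF-beta, was at 25.6, 28.0 and 26.3 CPM in WT and at 42.5, 38.5 and 16.1 in KO. KO1 and KO2 were at 160% and 145% of the WT mean, while KO3 was at 60.5%, below every WT library. Its log2 difference was 0.28 (standard error 0.32, adjusted p = 0.572) with KO3 and 0.61 (adjusted p = 0.0097, edgeR quasi-likelihood test) without it. Itgb5 (-0.09), Itgb6 (-0.04), Itgb2 (-0.06) and Itgb7 (-0.04) had small differences. Per kilobase in WT, Itgb1 (40.7 CPM per kb, 34.0 to 52.8) and Itgb5 (40.6, 34.9 to 43.9) were alike and had the highest means of all members. Hspg2 came next (32.0, 26.4 to 36.0), with a range that overlapped both. Among the beta subunits Itgb4 followed (28.0, 24.3 to 32.6).

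Of the 5 alpha subunits named by a letter, which lie outside the symbol rule, none passed in edgeR's quasi-likelihood test. At an unadjusted p under 0.05 there were 3 (29.6% of all genes). Those 3, Itgae, Itgal and Itgax, are found on leukocytes and were above WT in every KO library, as were 13.5% of all genes. Itgae, the subunit of lymphocytes within epithelia, was at 3.81, 5.57 and 3.42 CPM in WT and 6.75, 7.46 and 8.09 in KO (0.80, standard error 0.23, adjusted p = 0.0732, 0.0304 in edgeR's exact test), and Itgal at 6.64, 6.97 and 7.87 in WT and 8.75, 9.34 and 14.1 in KO (0.58, adjusted p = 0.128). Itgax had a log2 difference of 0.56 (adjusted p = 0.138), while Itgam, also a leukocyte subunit, was at -0.45 (adjusted p = 0.196) and Itgav at 0.08. Their leukocyte partners Itgb7 and Itgb2 did not separate the genotypes. Among 6 leukocyte markers, Ptprc (log2 0.67), Lcp1 (0.65) and Cd52 (0.60) were above WT in every KO library. Their adjusted p was 0.115, 0.0907 and 0.0992 (edgeR quasi-likelihood test). The others of that list, Coro1a (0.11), Laptm5 (-0.27) and Rac2 (-0.25), overlapped between genotypes, and so did the sum of the list. The part of leukocytes in the values of Itgae, Itgal and Itgax was not tested.

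The 3 integrin-binding genes differed among themselves. Itgb1bp2, melusin, a muscle protein, was at 24.5, 26.2 and 19.1 CPM in WT and 12.7, 11.2 and 18.7 in KO (-0.71, standard error 0.23, adjusted p = 0.0901, 0.0362 in edgeR's exact test). All KO values were below WT, KO3 only just, and without KO3 the log2 difference was -0.96 (adjusted p = 0.00527). Itgb1bp1, an inhibitor of Itgb1 activation, had a log2 difference of -0.03 (standard error 0.16), and Itgb3bp, which encodes a centromere protein, of 0.15 (standard error 0.24).

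**Figure D4:**
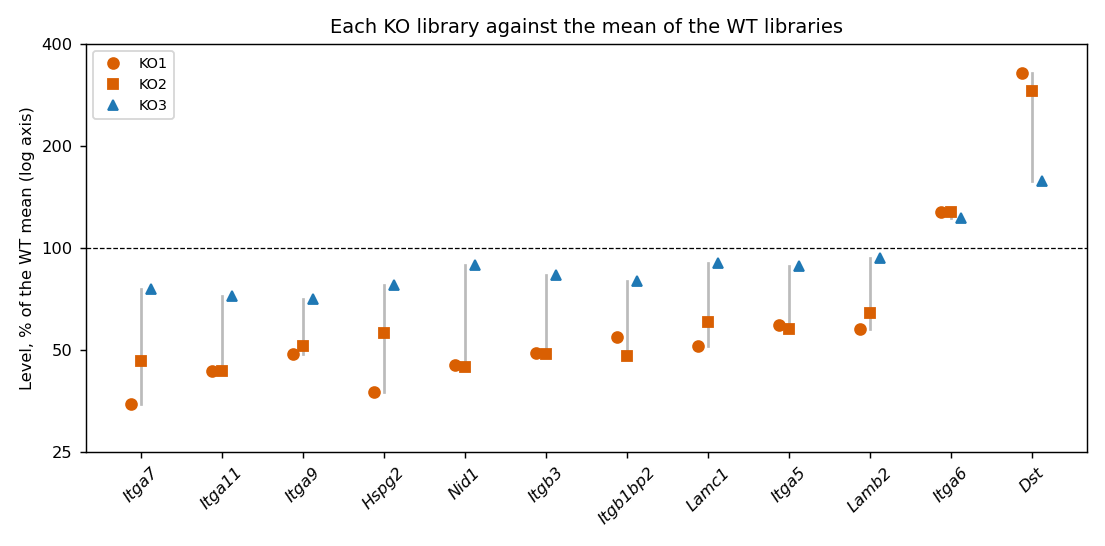
Level of each KO library as a percentage of the WT mean (log axis) for the 12 members whose genotypes did not overlap; grey lines join the lowest and highest KO library. KO3, in blue, is nearest to 100% in 12 of 12, from 70.9% for Itga9 to 158% for Dst.

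To set members beside the marker lists, the 12 members without overlap were divided by the summed CPM of each list within a library, a description chosen after the values had been seen and given without a test. Itga7 per 1000 CPM of skeletal muscle markers was 4.55, 4.6 and 4.63 in WT and 4.46, 4.67 and 4.89 in KO, so the genotypes overlapped. Itga11 per 1000 CPM of fibroblast markers was 3.17, 2.44 and 2.54 in WT and 2.95, 2.34 and 2.07 in KO. Nid1 on the same scale was 22.9, 26.8 and 19.0 in WT and 25.7, 20.1 and 21.4 in KO. Relative to those markers neither gene separated the genotypes. With the lists exchanged the genotypes overlapped as well. Itga7 per 1000 CPM of fibroblast markers was 9.36, 7.05 and 6.75 in WT and 6.69, 7.08 and 6.17 in KO. Per 1000 CPM of muscle markers Itga11 was 1.54, 1.60 and 1.74 in WT and 1.97, 1.55 and 1.64 in KO, and Nid1 overlapped too. An overlap with 1 list was therefore not particular to that cell type.

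Of the 12 members, 10 overlapped between genotypes relative to fibroblast markers, 10 relative to smooth muscle markers, 7 relative to skeletal muscle markers and 4 relative to endothelial markers. The other 5 relative to muscle markers (Hspg2, Lamb2, Lamc1, Itga6 and Dst) were all higher in KO. Relative to endothelial markers 6 were lower and 2, Dst and Itga6, higher. Relative to basal keratinocyte markers none overlapped, with 10 lower and the same 2 higher. The 12 were picked for not overlapping, and the basal sums differed little (10400 to 11400 CPM in WT, 9790 to 11600 in KO). That count therefore largely repeats how the 12 were picked. In both the fibroblast and the smooth muscle ratios the 2 that did not overlap were Dst and Itga6, both higher in KO. Dst per 1000 CPM of basal keratinocyte markers was 31.5, 44.6 and 50.6 in WT and 138, 135 and 62.0 in KO, and Itga6 was 16.5, 19.0 and 15.1 in WT and 21.5, 23.9 and 19.4 in KO. Relative to suprabasal markers, Dst overlapped, at 14.8, 19.4 and 28.0 in WT and 32.6, 33.7 and 23.6 in KO, and it was the 1 of 12 that did. The other 11, Itga6 included, were lower in KO on that scale. The suprabasal sum was itself higher in KO (30600 to 46200 CPM, 19600 to 24300 in WT), which lowers these ratios. The same division was not made for genes outside the 12, so no share over all genes stands beside these counts. The part of tissue composition in these differences was not tested.

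**Figure D5:**
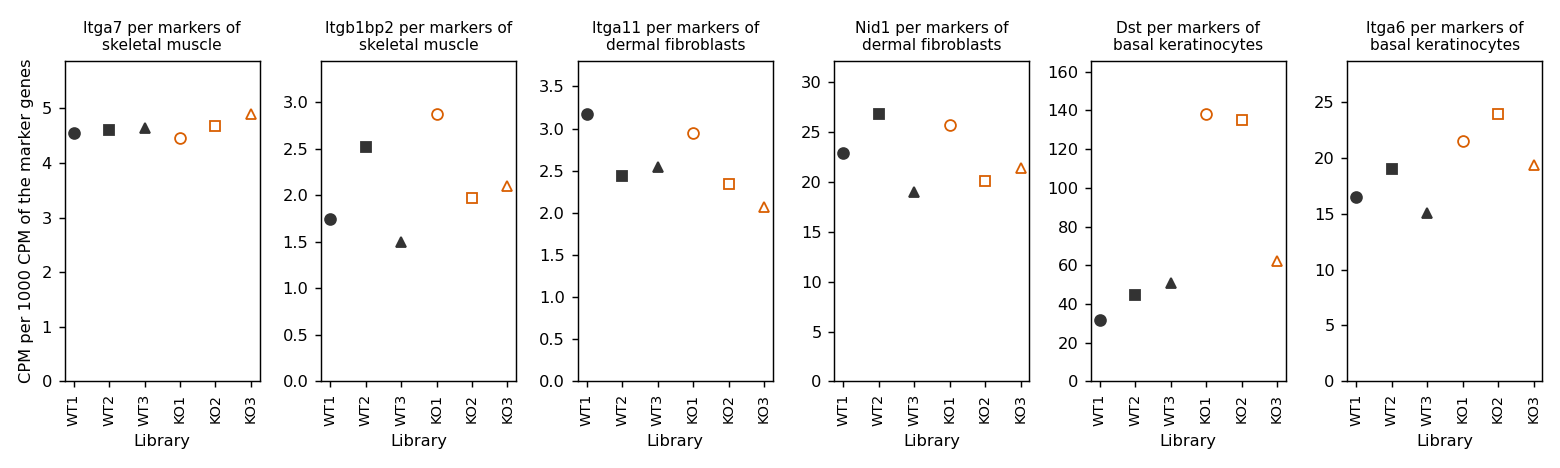
Selected members divided by the summed CPM of a marker list in the same library (CPM per 1000 CPM of markers). Itga7 per muscle markers is alike in all 6 libraries (4.46 to 4.89), while Dst per basal keratinocyte markers is 31.5 to 50.6 in WT and 62.0 to 138 in KO.

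None of 26 adaptor and focal adhesion genes, which act with integrins inside the cell, passed in edgeR's quasi-likelihood test. At an unadjusted p under 0.05 there were 8 (7 lower, 1 higher), or 30.8% against 29.6% of all genes. The exact test called 4 lower (15.4%, 7.15% of all genes) and none higher (7.76% of all genes), and limma-voom called 2 lower (2.21% of all genes). The lowest adjusted p values were those of Lims2, a partner of the integrin-linked kinase (15.9, 16.7 and 13.2 CPM in WT and 6.04, 4.96 and 10.2 in KO, log2 -1.12, adjusted p = 0.0507), and Tenc1, a tensin (96.1, 96.8 and 94.6 CPM in WT and 51.6, 59.2 and 74.4 in KO, log2 -0.63, adjusted p = 0.0521). In both, every KO library was below WT.

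Of 15 integrin ligands tested, 1 fell (6.67%, 2.09% of all genes) and none rose (edgeR quasi-likelihood test). In 12 the log2 difference was negative, with a median of -0.41. Tnc, tenascin-C, a ligand of the Itga9 integrin, was at 253, 252 and 246 CPM in WT and 133, 169 and 180 in KO (-0.64, standard error 0.15, adjusted p = 0.0433). Thbs1, thrombospondin-1, was at 255, 226 and 242 CPM in WT and 148, 188 and 177 in KO (-0.49, adjusted p = 0.0731).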

How the data were processed

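TopHat2 2.0.8 with Bowtie2 2.1.0 aligned the paired reads to GRCm38 in the authors' hands, and the deposited values are whole-number counts per gene symbol from HTSeq-count, without normalization. How reads were counted by strand is not given in the sources used here. All 6 libraries, 3 per genotype and each from 1 mouse, entered, and every symbol named a gene. The tested genes, those at 1 CPM or more in 3 or more libraries, were compared with R 4.3.3 and edgeR 4.0.16 (TMM, estimateDisp, glmQLFit with legacy=FALSE, glmQLFTest), with Benjamini-Hochberg adjustment over all tested genes and a threshold of 0.05. The study's methods name edgeR's exact test, which was an alternative, as were DESeq2 1.42.0 and limma-voom (limma 3.58.1). The procedure was tested on simulated data.

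Values are TMM-scaled CPM, per kb of exon union where genes are compared in level. Standard errors are the fitted log2 difference over the square root of F. Ratios used counts with 0.5 added and a two-sided exact permutation test over libraries. Limits from 3 counts (0.0986 to 0.154 CPM in a library) and other counting errors cover counting only. Positions are from GENCODE M21, in which 24802 of 26814 symbols matched 1 gene, and promoter windows from RefSeq (GRCm38.p6), with a window for 26 of 39 members. Figures used Python 3.11.15 and matplotlib 3.10.9.

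The members, gene lists, ratio pairs and tests were chosen with earlier results of these data known, so none is independent of them. Values in every library are given for members called by any of the quasi-likelihood test, the exact test and DESeq2, for those whose genotypes did not overlap and for the ratio pairs, save 1 member that is counted but not reported singly here. Genes of other lists are named where called, or as the 2 with the lowest p, with Plec, a ratio partner, beside Dst. Itgb8, Lamc3, Itgam, Itgax, Itgav, Col7a1, Grip1, Fbln1, Dsp, Ppl, Evpl and the leukocyte markers were described after their values had been seen.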

Additional observations from a re-analysis of the deposited data

How the results depend on the processing

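The count of members higher in KO was 1 under every test, scaling and filter tried with all libraries, except 0 with a replicate block, and 0 to 2 with single libraries left out (2 without KO3: Dst and Itgb8). The count lower, 0 in the quasi-likelihood test, was 7 in edgeR's exact test, 3 in DESeq2, 6 at an adjusted p under 0.1, 1 with a replicate block, and 0 to 13 with single libraries left out (13 without KO3). No share over all genes stands beside the counts at an adjusted p under 0.1 and with a replicate block. Whether they exceed the rate over all genes is therefore not known here. Deviations from the genotype means correlated at -0.192, 0.293 and 0.312 for equal replicate numbers. For unequal numbers they correlated at -0.504 to 0.407. These values gave no sign that replicate numbers pair the mice, though they cannot exclude it. With the block, Dst had an adjusted p of 0.0652 and Itga11 one of 0.0443.

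Signs changed for members near 0. Under DESeq2 the log2 difference was 0.01 for Itgb1bp1, 0.00 for Itgb6 and 0.01 for Itgb7. With the length trend removed it was 0.02, 0.04 and -0.02 for Itgb1bp1, Itgb7 and Lamb3. With library size alone it was -0.02 for Itgb1, with upper-quartile normalization -0.06 for Itgb1 and -0.03 for Lamb3, and with no filter 0.02, 0.01 and 0.02 for Itgb1bp1, Itgb6 and Itgb7. With single libraries left out it ranged across 0 for Agrn (-0.23 to 0.01), Itga1 (-0.27 to 0.06), Itga2 (-0.13 to 0.28), Itga4 (-0.32 to 0.07), Itga10 (-0.41 to 0.01), Itgb1 (-0.11 to 0.30), Itgb1bp1 (-0.08 to 0.09), Itgb2 (-0.36 to 0.18), Itgb4 (-0.28 to 0.01), Itgb5 (-0.28 to 0.08), Itgb6 (-0.09 to 0.04), Itgb7 (-0.32 to 0.22), Lama2 (-0.27 to 0.14) and Lamb3 (-0.06 to 0.17). None of these members had been called, and the cause of each change was not tested. The median over all genes lay between -0.079 and 0.042 under all settings. No ratio changed direction when a library was left out or 1 count was added in place of 0.5.

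With 3 mice per genotype a permutation test cannot go below 0.1, and the count of lower members turned on KO3. Lama1, at 16 to 43 counts, had the widest counting error of the members.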
